A study of Mus musculus with 30 samples.

Results

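The nuclear genes that encode the subunits of the mitochondrial respiratory chain and ATP synthase were examined in bone marrow (BM) and in adipose tissue macrophages (ATMs) of mice that had received a competitive BM transplant. Genes were taken by symbol (Ndufa, Ndufb, Ndufc, Ndufs and Ndufv followed by a digit; Sdha to Sdhd; Uqcr; Cox4 to Cox8; Atp5), leaving out annotated pseudogenes, when the symbol stood in the count tables of both tissues. This gave 79 genes of 13076 shared by the tables, with 35 in complex I, 4 in complex II, 8 in complex III, 15 in complex IV and 17 in complex V. Another 4 matching symbols, Ndufa4l2, Cox8b, Cox8c and Cox7b2, were listed for ATMs only and were kept apart. The symbol rule also took in Ndufa4, whose product is now placed in complex IV, Atp5s and Atp5sl, which carry ATP synthase names but are not subunits of the core enzyme, and Cox7a2l, which tethers complexes III and IV into supercomplexes.

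Poly-A RNA-seq libraries were made from whole BM cells and from F4/80+ cells sorted from visceral adipose tissue, 15 per tissue and 3 per group. In the Vehicle, GLP1, aIL17A and Combo groups the recipients were leptin-deficient Ob/Ob mice, which become obese; WT recipients made up the remaining group. Recipients were lethally irradiated and given BM of CD45.2+ Shp2E76K/+;LysM-Cre+ mice mixed 1:1 with BM of CD45.1+ Boy/J mice, so the Vehicle controls carried mutant donor cells as well. LysM-Cre is active chiefly in myeloid cells, and which cells of the graft carried the activated Shp2 mutation was not tested here. The libraries mix mutant donor, competitor and remaining host cells. For the WT group of ATMs, a legend of the study can be read as Ob/Ob mice given WT donor cells. Another legend names WT mice beside Ob/Ob mice. Which donors and recipients that group had was not resolved here, so its contrast with Vehicle may differ in donor, host or both. Starting 8 weeks after transplant, Ob/Ob recipients were treated for 30 days with vehicle, the GLP-1 receptor agonist beinaglutide (GLP1, 3 mg/kg), an antibody that neutralises IL-17A (aIL17A, 200 µg per mouse, 3 times weekly) or both agents (Combo). The labels give an age of 12 to 14 weeks for every sample, and both sexes were used. The 3 libraries of a group are read here as 3 separate mice, which was not tested.

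Complex I (NADH dehydrogenase) and complex II (succinate dehydrogenase) pass electrons to ubiquinone, complex III hands them on to cytochrome c, and complex IV reduces oxygen. Complexes I, III and IV pump protons across the inner mitochondrial membrane, and complex V, the ATP synthase, uses that gradient to make ATP. Complex II is encoded wholly in the nucleus and is also an enzyme of the tricarboxylic acid cycle, whereas the other complexes combine nuclear subunits with subunits encoded by mitochondrial DNA, which are not analysed here. Macrophages are known to rely on the chain to different degrees in different activation states, and mature neutrophils are known to hold few mitochondria.

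The factors NRF1, GABP (an ETS factor), ERR and YY1 have long been linked to nuclear mitochondrial genes, and a word for each was searched in the promoters. RefSeq promoters on GRCm38.p6, from 250 bases before to 50 bases after the start, were matched for 63 of the 79 genes and for 12935 genes of the count tables. The sequences upstream of 4 starts are shown because they belong to subunits whose levels are followed through the groups, Atp5k and Cox6a1 with an NRF1 word, Atp5g3 with an ERR word and Sdha with none of the words searched anywhere in its window. Capitals mark the matches, which in Atp5k and Cox6a1 are overlapping matches on both strands and in Atp5g3 lie on the reverse strand.
Atp5k, chr5:108434400-108434649, minus strand: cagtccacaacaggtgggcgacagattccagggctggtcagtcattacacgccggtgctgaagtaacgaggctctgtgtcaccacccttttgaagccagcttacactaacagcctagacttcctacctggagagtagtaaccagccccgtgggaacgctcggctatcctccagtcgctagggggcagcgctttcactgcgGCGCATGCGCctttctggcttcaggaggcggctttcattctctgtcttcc
Cox6a1, chr5:115348959-115349208, minus strand: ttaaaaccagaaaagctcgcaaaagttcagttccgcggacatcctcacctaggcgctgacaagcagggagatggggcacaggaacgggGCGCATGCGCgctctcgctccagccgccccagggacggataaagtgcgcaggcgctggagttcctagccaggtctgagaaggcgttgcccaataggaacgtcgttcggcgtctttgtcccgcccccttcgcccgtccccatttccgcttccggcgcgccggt
Atp5g3, chr2:73911327-73911576, minus strand: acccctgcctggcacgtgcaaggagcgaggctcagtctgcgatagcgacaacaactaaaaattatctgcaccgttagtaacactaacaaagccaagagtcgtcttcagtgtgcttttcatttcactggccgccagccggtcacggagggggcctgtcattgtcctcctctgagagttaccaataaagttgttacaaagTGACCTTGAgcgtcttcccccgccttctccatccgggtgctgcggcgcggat
Sdha, chr13:74350241-74350490, minus strand: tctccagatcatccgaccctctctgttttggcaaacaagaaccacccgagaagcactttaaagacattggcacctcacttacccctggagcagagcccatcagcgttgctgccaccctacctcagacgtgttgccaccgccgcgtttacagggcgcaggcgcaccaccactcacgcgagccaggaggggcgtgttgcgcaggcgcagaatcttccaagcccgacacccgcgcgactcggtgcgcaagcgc

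The words were searched on both strands of the whole 300-base window. The NRF1 word GCGCATGCG stood in 8 of the 63 subunit promoters (12.7%) and in 3.39% of all promoters. The YY1 word AAGATGGC stood in 9 (14.3%, against 4.35% of all), the ERR word TCAAGGTCA in Atp5g3 and Sdhd (3.17%, against 0.332%) and the ETS word CCGGAAGT in 5 (7.94%, against 7.24%). A match is a description of letters and not of a bound site. The median log2 fold change between aIL17A and Vehicle in BM was -0.25 for the 8 genes with the NRF1 word and -0.37 for the 55 without it. In ATMs the same medians were 0.30 and 0.28.

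Total counts ran from 31086184 to 39925495 per BM library and from 24876074 to 45300263 per ATM library. No gene fell to the low-count filter, and no pair of libraries of a group agreed within sampling noise. Their squared spread relative to that noise (chi-square per degree of freedom) ran from 11.7 to 26.8 in ATMs. In BM it was 34.8 and 26.6 for the pairs with WT replicate 1. The other BM pairs lay closer to sampling noise, at 2.02 to 4.21. Levels are given as CPM, counts divided by the library total after TMM scaling. Markers of other cells moved with the groups. The ATM libraries held all 10 macrophage markers above 0 in every group, but at a summed 3069 to 3307 CPM in Vehicle, 3530 to 3737 in WT and 9169 to 13163 in the treated groups. The 10 mature neutrophil markers summed to 21959 to 23261 CPM in Vehicle ATMs, 12974 to 13253 in Combo and 266 to 507 in the other groups, and 11 interferon-stimulated genes to 24367 to 25048 CPM in Vehicle and 472 to 914 elsewhere. WT, GLP1 and aIL17A ATM libraries also held spermatid transcripts (112 to 691 CPM, against at most 2.82 in Vehicle and Combo), and the same groups epididymal transcripts (2997 to 3148 CPM in WT, 41.8 to 45.4 in GLP1 and 147 to 179 in aIL17A, against at most 0.586 in Vehicle and Combo), both from organs that lie against visceral fat in males. Pancreatic acinar transcripts summed to 1133 to 1165 CPM in Combo ATMs and to at most 27.6 elsewhere. In BM the neutrophil markers summed to 79000 to 79670 CPM in GLP1, 94487 to 95768 in aIL17A, 105070 to 112757 in WT, 119241 to 121048 in Vehicle and 133043 to 134642 in Combo, and 8 of 12 erythroid markers in the table to 1377 to 1394 CPM in Vehicle and 3603 to 3651 in GLP1. B cell markers summed to 1407 to 1441 CPM in WT BM, 426 to 466 in Vehicle and aIL17A and 139 to 146 in GLP1 and Combo, and monocyte and macrophage markers to 13978 to 14246 in WT, 6878 to 7685 in Vehicle, aIL17A and Combo and 4029 to 4031 in GLP1. The interferon-stimulated genes summed to 6109 to 6139 CPM in Vehicle BM, 527 to 532 in WT and 222 to 308 in the treated groups. Their part in the results below was not tested, and in bulk samples fewer cells of a type and less RNA per cell cannot be told apart.

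As a module, the 79 genes took a mean 0.953% (Combo) to 1.18% (GLP1) of the counts in BM and 0.630% (Vehicle) to 1.00% (Combo) in ATMs. In BM the summed level was 11029 to 11731 CPM in WT, 10641 to 10900 in Vehicle, 10643 to 10798 in GLP1, 10356 to 10420 in Combo and 9227 to 9375 in aIL17A. After TMM scaling the aIL17A libraries lay below all others, although by share of counts Combo (0.953%) was below aIL17A (0.976%), and aIL17A was the group of lowest mean for 58 of the 79 genes, whereas WT was the highest for 44. In ATMs the order was another: 9205 to 9761 CPM in aIL17A, 9117 to 9154 in Combo, 7770 to 7963 in WT, 7415 to 7823 in Vehicle and 7438 to 7487 in GLP1. The order by share of counts differed in both tissues. In BM, GLP1 (1.18%) was above WT (1.16%). In ATMs, Vehicle (0.630%) was lowest, below GLP1 (0.712%) and WT (0.874%). After TMM scaling, aIL17A was highest in ATMs for 39 genes, and GLP1 lowest for 44 and Vehicle for 26. The share of all genes with these ranks was not counted in either tissue. The ranks are therefore not read as a trait of the subunits. A difference among the 5 groups passed a false discovery rate (FDR) of 0.05 for 79 of 79 genes in BM, where 95.1% of all genes passed, and for 76 of 79 in ATMs, where 73.5% did.

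**Figure D1:**
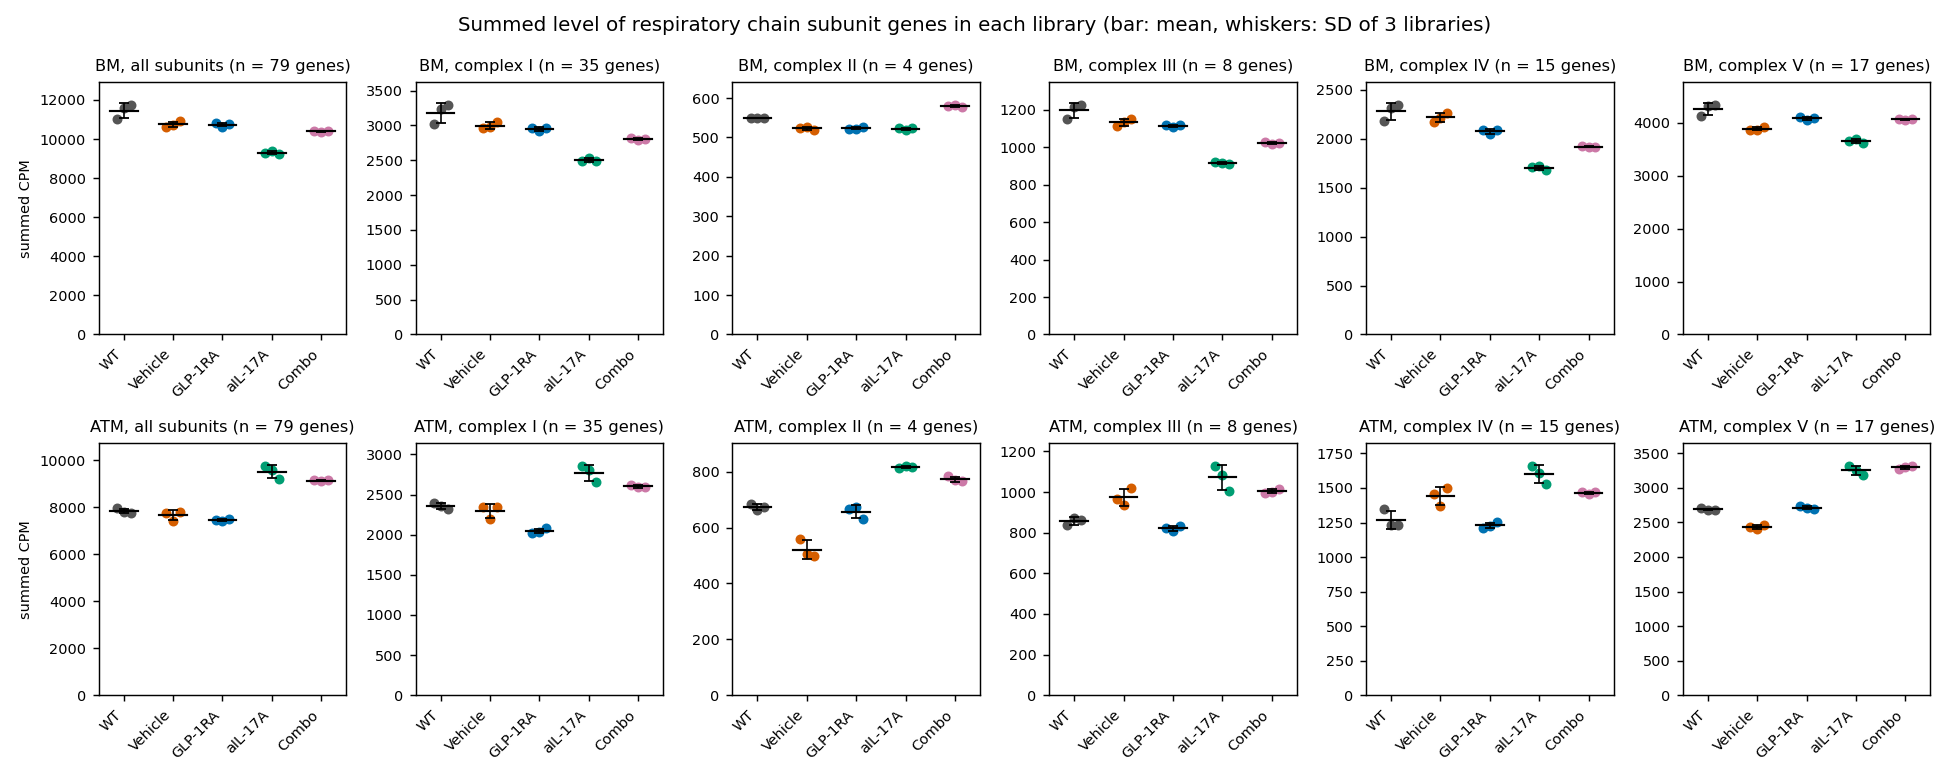
Summed CPM (y axis, from 0) of the subunit genes in each library, for all 79 genes and by complex, BM above and ATMs below; points are libraries, bars the mean and whiskers the SD of 3. After TMM scaling, the aIL17A libraries lie lowest in BM (9227 to 9375 CPM for all genes) and, with Combo, highest in ATMs (9205 to 9761 and 9117 to 9154).

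Per kilobase of exon, levels spanned a wide range among the subunits. In Vehicle BM the highest were Cox6b1 at 311, Cox8a at 299, Cox4i1 at 285 and Cox6a1 at 245 CPM per kilobase, all small nuclear subunits of complex IV, and the catalytic Atp5a1 and Atp5b of complex V stood at 209 each. The lowest were the muscle isoform Cox7a1 at 0.485 and the lung and hypoxia isoform Cox4i2 at 2.20 CPM per kilobase. In Vehicle ATMs Cox6a1 (341), Cox8a (309) and Cox6b1 (248 CPM per kilobase) again led, and Cox7a1 (1.196) was again lowest.

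The first comparison set the transplant in Ob/Ob recipients given vehicle beside that in WT recipients. The labels give no treatment for WT, so these groups may differ in vehicle dosing as well as in host. In Vehicle BM, 18 of 79 subunit genes were higher and 43 lower than in WT BM, where 37.8% of all genes were higher and 38.8% lower. The median log2 fold change was -0.09, against -0.02 over all genes. Scaling by total counts gave 9 higher and 58 lower, and upper-quartile scaling 11 and 55. With the study's added limit of an absolute log2 fold change above 1, 2 genes passed, Cox4i2 and Cox7a1, against 19.5% of all genes.

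Complex I held 7 of the rises and 17 of the falls. Ndufs4, an accessory subunit of the NADH-oxidising arm whose loss causes Leigh syndrome, stood at 91.8, 94.2 and 94.2 CPM in WT BM and at 141, 140 and 137 CPM in Vehicle BM. The groups did not overlap, and the log2 fold change was 0.58 ± 0.03 (SE, FDR 3.86e-18). Ndufv3, another accessory subunit of that arm, rose by 0.52 ± 0.06 (FDR 7.4e-08). The NADH-binding Ndufv1 did not pass (0.04, FDR 0.234). Ndufa4 fell with a log2 fold change of -0.32 ± 0.03 (FDR 2.12e-12).

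Within complexes II and III the subunits parted ways. Sdha, the flavoprotein that oxidises succinate, fell from 162, 163 and 166 CPM to 139, 143 and 134 CPM (-0.24 ± 0.03, FDR 5.29e-10), whereas its iron-sulphur partner Sdhb rose (0.18 ± 0.03, FDR 4.41e-06), a call lost under total-count scaling (0.05). The hinge protein Uqcrh was lower in Vehicle BM (183, 188 and 197 CPM) than in WT BM (245, 267 and 264 CPM, -0.45 ± 0.03, FDR 9.24e-17). The small subunit Uqcrq was higher (138, 147 and 154 against 106, 119 and 117 CPM, 0.36 ± 0.04, FDR 1.44e-09), and so was the Rieske protein Uqcrfs1 (0.21 ± 0.03, FDR 4.43e-08).

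Cox7a2l showed the clearest separation in complex IV, with 236, 247 and 244 CPM in WT BM and 138, 135 and 143 CPM in Vehicle BM. Its log2 fold change was -0.81 ± 0.03 (FDR 2.17e-25). Cox5a and Cox5b, which form the matrix side of the enzyme, rose by 0.34 ± 0.04 and 0.34 ± 0.05 (FDR 1.21e-09 and 1.06e-05), and Cox4i1, their membrane-anchored neighbour, was lower by a log2 value of -0.15 ± 0.02 (FDR 2.72e-07). Of the isoforms, Cox6a2 was lower (5.87, 7.92 and 6.59 CPM in WT, 3.06, 4.29 and 4.17 in Vehicle, -0.82 ± 0.15, FDR 3.47e-06) and Cox4i2 higher (0.526 to 1.12 against 1.63 to 1.92 CPM, 1.18 ± 0.31, FDR 0.000732). Cox7a1 lay below 1 CPM in every library, and its call (-1.203, FDR 0.0208) was lost without WT replicate 3 (-1.01) or Vehicle replicate 3 (-1.15).

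In complex V, 2 of 17 genes rose and 12 fell. Atp5c1, the rotating central stalk, fell from 317, 314 and 324 CPM to 264, 257 and 255 CPM (-0.30 ± 0.02, FDR 2.85e-14), and Atp5k, a small subunit at the dimer interface whose promoter is printed above, from 92.3, 105 and 108 CPM to 78.2, 77.2 and 83.4 CPM (-0.36 ± 0.05, FDR 5.41e-08). Atp5o, the peripheral stalk protein, was lower as well (-0.18 ± 0.03, FDR 3.14e-07), but 47.9% of its exon bases are shared with other annotated genes, so its counts are uncertain.

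The treated groups were then set against Vehicle, which all 3 comparisons share. In GLP1 BM, 20 subunit genes were higher and 35 lower (36.5% and 36.3% of all genes), with a median of -0.07 against 0.01 over all genes. This direction turned under total-count scaling, which gave 54 higher and 9 lower, and was even under upper-quartile scaling (27 and 25). Only Cox6a2 and Cox6b2 passed the added fold limit, against 16.7% of all genes. In aIL17A BM, 11 were higher and 61 lower (36.4% and 36.6% of all genes), with a median of -0.30 against 0.01, and total-count scaling left 16 higher and 45 lower. Cox4i2 and Ndufs4 passed the fold limit, against 16.1% of all genes. In Combo BM, 16 were higher and 46 lower (37.9% and 35.8%), with a median of -0.14 against 0.02, and Cox4i2 and Cox6a2 passed the fold limit, against 17.7%.

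**Figure D2:**
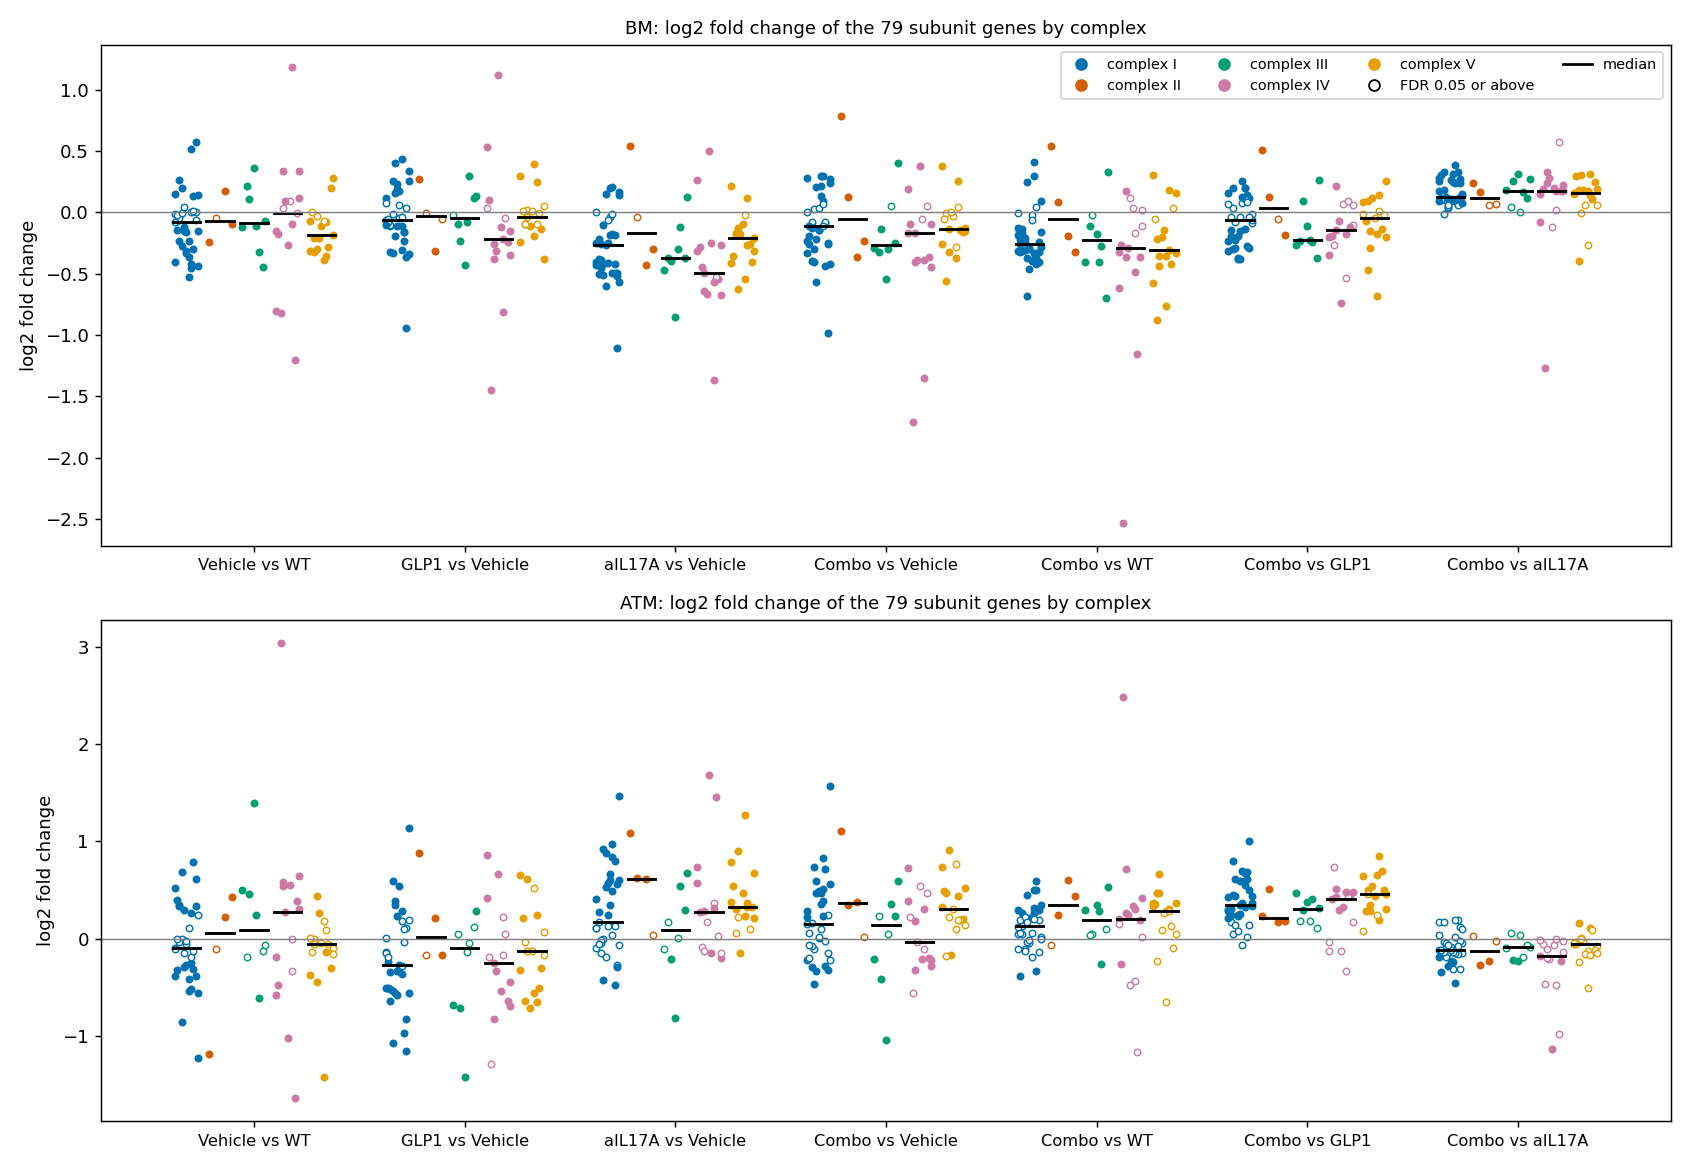
Log2 fold changes (y axis) of each subunit gene after TMM scaling, by complex and comparison in BM and ATMs; each point is a gene. In BM the aIL17A points centre lowest (median -0.30) and in ATMs the Combo against GLP1 points highest (median 0.35). Under total-count scaling the direction of GLP1 against Vehicle turns in BM, and its counts even out in ATMs.

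In aIL17A BM, 26 of 35 genes were lower in complex I, 7 of 8 in complex III, 12 of 15 in complex IV and 14 of 17 in complex V. In complex II 2 of 4 were lower, and its summed level was 519 to 523 CPM, against 520 to 527 in Vehicle. Complex IV had the lowest median (-0.50). Cox7a2, the common partner of the muscle isoform Cox7a1, fell from 173, 175 and 176 CPM in Vehicle to 109, 112 and 109 CPM (-0.67 ± 0.03, FDR 3.64e-23). Cox5b fell by a log2 value of -0.68 ± 0.05 (FDR 3.6e-09) and Cox6b1, which sits at the dimer interface of complex IV, by -0.54 ± 0.03 (FDR 2.48e-17). Uqcrq fell to 79.8, 81.4 and 81.9 CPM (-0.85 ± 0.04, FDR 2.21e-18), below its WT level. Atp5l, a membrane subunit of complex V, fell from 129, 136 and 140 CPM to 85.6, 89.0 and 87.5 CPM (-0.63 ± 0.04, FDR 1.11e-15).

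Ndufs4 and Sdha went opposite ways in the treated BM groups. Ndufs4 stood at 73.2, 74.1 and 70.1 CPM in GLP1, 67.2, 66.2 and 61.1 in aIL17A and 71.6, 70.9 and 69.3 in Combo, against at least 137 CPM in Vehicle and 91.8 in WT. Its log2 fold changes against Vehicle were -0.94 ± 0.04, -1.10 ± 0.04 and -0.98 ± 0.04 (FDR 4.67e-25, 2.79e-27 and 1.44e-25). Every treated library was thus below every WT library, and the GLP1 and Combo libraries overlapped (FDR 0.349).

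Sdha moved the other way. It stood at 168, 167 and 168 CPM in GLP1, 202, 198 and 207 in aIL17A and 236, 242 and 237 in Combo, against 134 to 143 in Vehicle, so that the Vehicle, GLP1, aIL17A and Combo libraries did not overlap. Its log2 fold changes against Vehicle were 0.28 ± 0.03, 0.55 ± 0.03 and 0.78 ± 0.03 (FDR 1.76e-11, 1.22e-20 and 3.75e-26), and Combo exceeded aIL17A by 0.24 ± 0.03 (FDR 7.88e-10, though 0.04 and not called under total-count scaling) and GLP1 by 0.51 ± 0.03 (FDR 7.05e-20). The other complex II genes did not share this order: Sdhb was lower in each treated group than in Vehicle (-0.31, -0.43 and -0.37, FDR at most 2.48e-11) and Sdhd lower in aIL17A and Combo (-0.30 and -0.23).

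Compared with Vehicle BM, 11 subunit genes were higher and 27 lower in all 3 treated groups. The share of all genes called alike in all 3 was not counted, and the comparisons share the Vehicle libraries. These counts are therefore not read as a trait of the subunits. Atp5a1, the alpha subunit of complex V, stood at 650 to 663 CPM in Vehicle, 794 to 812 in GLP1, 754 to 771 in aIL17A and 845 to 860 in Combo (log2 fold changes 0.30, 0.22 and 0.38, each SE 0.02, FDR at most 1.02e-11). Atp5b, the catalytic beta subunit, rose by 0.25, 0.12 and 0.26 (FDR at most 0.000207). In complex I, Ndufs1 and Ndufv1, which carry electrons away from NADH, were each higher in all 3 groups than in Vehicle, with log2 values of 0.17 to 0.26 and 0.15 to 0.41. Ndufa10, an accessory subunit with a kinase-like fold, rose from 84.0, 86.2 and 87.6 CPM to 115, 114 and 120 CPM in GLP1 (0.44 ± 0.04, FDR 1.53e-13). In complex III Uqcrc1, a core protein, rose most in Combo (227 to 235 against 173 to 178 CPM in Vehicle; 0.40 ± 0.03, FDR 1.75e-16), while its partner Uqcrc2 fell there (161 to 170 against 199 to 206 CPM, -0.30 ± 0.03, FDR 1.85e-12).

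**Figure D3:**
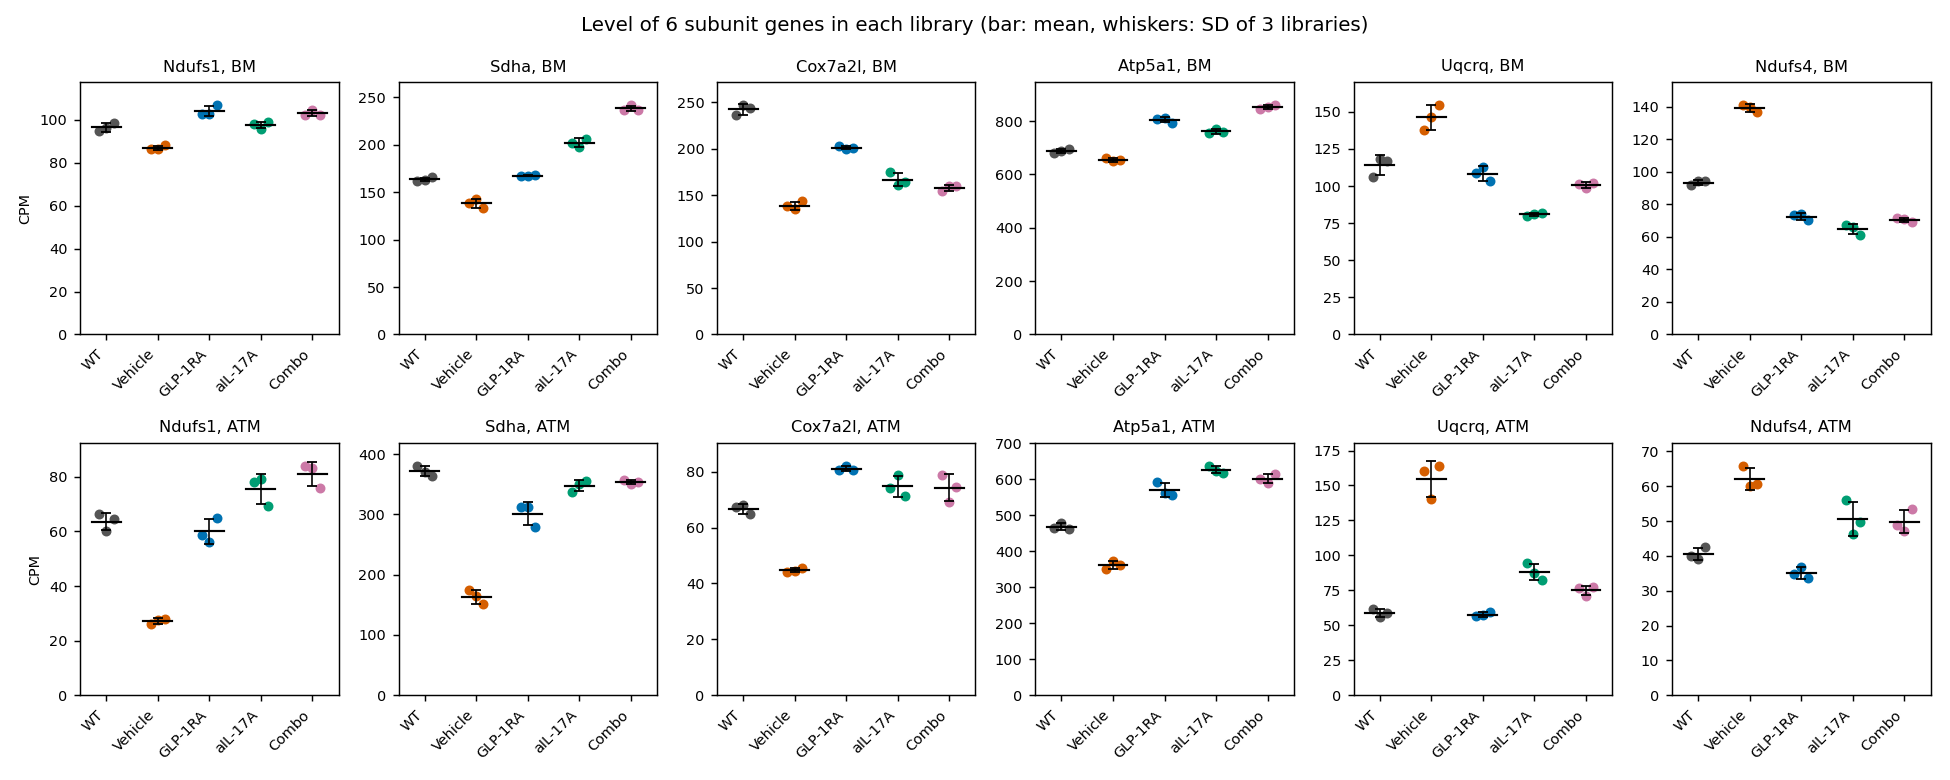
CPM (y axis, from 0) of Ndufs1, Sdha, Cox7a2l, Atp5a1, Uqcrq and Ndufs4 in each library of BM and ATMs; points are libraries, bars the mean and whiskers the SD of 3. After TMM scaling, Ndufs4 (137 to 141 CPM in BM) and Uqcrq (140 to 164 CPM in ATMs) are highest in Vehicle in both tissues, and Sdha, Cox7a2l and Atp5a1 lowest. The rise of Ndufs4 in Vehicle ATMs is not called under total-count scaling.

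Combo BM remained apart from WT BM. There, 11 subunit genes were higher and 56 lower (36.1% and 37.2% of all genes), with a median of -0.27 against -0.03. Upper-quartile and total-count scaling moved the median of all genes in this comparison by -0.13 and -0.15, and the subunit genes stayed lower on balance under both. As both scalings moved genes down, they could not have turned this direction and are no check of it. Cox6a2 and Cox7a1 passed the fold limit (14.3% of all genes). Atp5e, the epsilon subunit of complex V, stood at 175, 198 and 190 CPM in WT and 113, 109.9 and 109.6 in Combo (-0.76 ± 0.03, FDR 3.75e-22). Uqcrh fell too (156, 159 and 162 CPM in Combo; -0.70 ± 0.03, FDR 5.09e-23), and Cox7a2l, at 155, 160 and 159 CPM, stayed below WT (-0.62 ± 0.03, FDR 1.46e-21). Atp5sl fell from 26.4, 26.0 and 25.2 to 13.9, 14.4 and 13.9 CPM (-0.88 ± 0.07, FDR 2.77e-15). Cox6a2 fell furthest, to 1.13 to 1.24 CPM (-2.53 ± 0.17, FDR 1.54e-16).

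Against the single agents, Combo BM had 18 subunit genes higher and 38 lower than GLP1 (36.1% and 35.3% of all genes; median -0.09 against -0.01). Total-count scaling gave 1 and 70 and upper-quartile scaling 7 and 51. Relative to aIL17A, 57 were higher and 3 lower (30.9% and 21.7%), with a median of 0.16 against 0.02. This comparison turned under total-count scaling, with 11 higher and 26 lower, and kept its direction under upper-quartile scaling, with 32 and 7. The genes lower than in aIL17A were Cox6a2 (-1.27 ± 0.19, FDR 4.62e-07), Atp5sl (-0.39 ± 0.07, FDR 5.03e-06) and Cox7a2l (-0.08 ± 0.03, FDR 0.0304), the last of which did not pass without Combo replicate 1 (-0.06) or aIL17A replicate 1 (-0.04).

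In ATMs the chain genes were spread more widely, and the fitted biological variation over all genes was larger, with a coefficient of 32.5% against 3.51% in BM. Vehicle ATMs had 26 subunit genes higher and 25 lower than WT ATMs (24.3% and 32.6% of all genes), with a median of -0.06 against -0.21 over all genes. Total-count scaling, which moved the median of all genes by -0.44 here, gave 5 higher and 53 lower, and upper-quartile scaling 22 and 32. The 7 genes past the fold limit were Cox6a2 and Uqcrq (higher) and Ndufs1, Sdha, Cox6b2, Cox7a1 and Atp5s (lower), against 35.4% of all genes.

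Ndufs1, the largest subunit of complex I and a carrier of iron-sulphur clusters, stood at 66.2, 59.97 and 64.6 CPM in WT ATMs and 26.2, 27.4 and 28.05 CPM in Vehicle ATMs. Sdha stood at 380.5, 369.8 and 364 CPM in WT and at 175, 165 and 152 CPM in Vehicle. Both were lower in every Vehicle library than in every WT library, with log2 fold changes of -1.22 ± 0.09 and -1.18 ± 0.06 (FDR 7.86e-09 and 4.59e-11). Ndufb10, a membrane arm subunit, fell as well, from 75.5, 74.9 and 73.6 CPM to 43.2, 42.0 and 38.5 CPM (-0.86 ± 0.09, FDR 3.87e-07). Cox7a2l fell by a log2 value of -0.58 ± 0.07 (FDR 5.1e-06), Atp5c1 by -0.44 ± 0.05 (FDR 3.79e-06) and Atp5a1 by -0.37 ± 0.04 (FDR 3.24e-07).

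Uqcrq rose over the same step, from 61.8, 56.1 and 58.6 CPM to 160, 140 and 164 CPM (1.40 ± 0.08, FDR 3.73e-10). The accessory complex I genes Ndufb7 (0.79 ± 0.10), Ndufc2 (0.68 ± 0.09) and Ndufs4 (0.61 ± 0.10) rose too (FDR at most 4.73e-05). So did Cox5a (0.54), Cox5b (0.64), Cox6a1 (0.55) and Uqcrb (0.46), but under total-count scaling Ndufs4, Cox5a, Cox6a1 and Uqcrb no longer passed (0.18, 0.10, 0.11 and 0.02). The neutrophil and interferon lists given above were highest in these same Vehicle libraries. So were the adipocyte (4130 to 4407 CPM, 1177 to 1191 in WT), endothelium and pericyte (1333 to 1476, 709 to 721 in WT) and erythroid (6819 to 6910, 3964 to 4191 in WT) lists. Fibroblast and mesothelium markers were lowest there (5353 to 5690 CPM, 14711 to 15513 in WT), as were B cell and T and NK cell markers. The part of these lists was not tested.

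All 3 treatments of ATMs were again read against the same Vehicle libraries. In GLP1 ATMs, 17 subunit genes were higher and 36 lower (31.8% and 22% of all genes), with a median of -0.17 against 0.19 over all genes, although total-count scaling gave 26 higher and 24 lower. The 4 genes past the fold limit (31.8% of all genes) were Ndufs1, which was higher, and Ndufa3, Ndufc2 and Uqcrq, which were lower. In aIL17A ATMs, 43 were higher and 8 lower (33.1% and 25% of all genes), with a median of 0.28 against 0.17. Total-count scaling gave 68 and 1 and upper-quartile scaling 50 and 3. Cox6b2, Ndufs1, Cox7a1, Atp5s and Sdha passed the fold limit, against 35.5%. In Combo ATMs, 33 were higher and 15 lower (25% and 23.7%), with a median of 0.20 against 0.00, and total-count scaling gave 64 and 1. Ndufs1, Sdha and Uqcrq passed the fold limit, against 26.4%.

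Ndufs1 rose to 58.8, 56.2 and 64.95 CPM in GLP1, 77.9, 79.2 and 69.2 in aIL17A and 83.95, 83.4 and 75.97 in Combo ATMs. Its log2 fold changes against Vehicle were 1.14, 1.47 and 1.58, each with an SE of 0.09 (FDR 2.11e-08, 8.26e-10 and 4.36e-10). GLP1 libraries thus overlapped WT, and Combo libraries lay above WT (0.35 ± 0.09, FDR 0.0037). Of the exon bases of Ndufs1, 6.16% overlap other genes on the opposite strand, which unstranded counting cannot separate.

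Sdha rose to 312, 313 and 279 CPM in GLP1, 338, 350 and 355 in aIL17A and 357, 351 and 354 in Combo ATMs (0.88, 1.09 and 1.11, each SE 0.06, FDR at most 2.03e-09). Combo libraries lay just under the WT libraries, a difference that did not pass (-0.07, FDR 0.336). The other complex II genes followed in aIL17A and Combo but for Sdhd. Sdhb rose from 153, 134 and 134 CPM to 214, 217 and 210 CPM in aIL17A (0.61 ± 0.07, FDR 1.2e-06) and Sdhc, a membrane anchor, from 67.3, 58.3 and 61.8 to 98.9, 94.5 and 95.8 CPM (0.62 ± 0.08, FDR 4.46e-06), whereas Sdhd gave 0.04 (FDR 0.53) but passed under total-count (0.39) and upper-quartile (0.13) scaling.

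Uqcrq fell from its Vehicle level in each group, to 56.3, 57.3 and 59.4 CPM in GLP1, 94.4, 87.6 and 82.4 in aIL17A and 76.4, 71.2 and 77.3 in Combo ATMs (-1.42, -0.81 and -1.05, each SE 0.08, FDR at most 2.33e-07). Of these, GLP1 alone had libraries inside the range of WT. Other complex III genes differed from it: Uqcrc1 rose to 323 to 379 CPM in aIL17A against 213 to 229 in Vehicle (0.68 ± 0.07, FDR 3.71e-07), and Uqcr11, a small subunit, rose from 80.4, 72.1 and 81.4 to 115, 111 and 114 CPM (0.54 ± 0.08, FDR 4.95e-05). Uqcrfs1 passed in no treated group against Vehicle (0.05 to 0.23, FDR 0.0633 to 0.679), but did under total-count scaling in GLP1 (0.27), aIL17A (0.52) and Combo (0.65).

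Among the small subunits of complex I, Ndufa3 stood at 87.1, 69.5 and 76.3 CPM in Vehicle and 32.3, 31.8 and 40.6 CPM in GLP1 ATMs (-1.15 ± 0.12, FDR 7.95e-07), and Ndufc2 at 76.6, 69.5 and 79.9 and 36.0, 36.8 and 34.6 CPM (-1.07 ± 0.09, FDR 6.11e-08). Ndufb3 fell from 37.0, 36.3 and 35.6 to 23.1, 23.2 and 23.7 CPM (-0.64 ± 0.09, FDR 1.86e-05). Ndufb8, which is often used as a protein marker of assembled complex I, was instead higher in all treated groups, at 122 to 125 CPM in GLP1, 174 to 184 in aIL17A and 142 to 153 in Combo, against 88.5 to 107 in Vehicle (0.35, 0.88 and 0.60, FDR at most 0.000379). Ndufv1 was also higher in each (0.39 to 0.53).

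In complex V, 13 of 17 genes were higher in aIL17A and 8 in Combo than in Vehicle ATMs. Atp5a1 went from 351, 372 and 363 CPM in Vehicle to 591, 562 and 556 in GLP1, 637, 624 and 618 in aIL17A and 602, 590 and 616 in Combo, against 462 to 479 in WT. All treated libraries therefore exceeded all WT libraries, and the log2 fold changes against Vehicle were 0.66, 0.79 and 0.73 (each SE 0.04, FDR at most 3.51e-10). Atp5c1 rose by 0.62, 0.90 and 0.91 and Atp5b by 0.25, 0.33 and 0.43. Atp5k, in contrast, fell in GLP1 (12.4, 12.6 and 14.7 against 20.7, 19.9 and 21.7 CPM, -0.65 ± 0.13, FDR 0.000542) and rose in aIL17A (25.3 to 29.2 CPM, 0.37 ± 0.13, FDR 0.0224), a call lost without Vehicle replicate 2 (0.34) or aIL17A replicate 1 (0.30).

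Complex IV went both ways. Cox4i1 was higher in all treated ATMs (282 to 295 CPM in GLP1, 306 to 332 in aIL17A and 275 to 289 in Combo against 213 to 220 in Vehicle; 0.42, 0.57 and 0.39, each SE 0.04) and Cox7a2l likewise (0.86, 0.74 and 0.73, each SE 0.07, FDR at most 4.18e-07). Cox5b and Cox6a1 were lower in GLP1 (-0.70 and -0.54, FDR 8.99e-07 and 2.06e-06). In aIL17A and Combo they gave -0.20 and -0.22 (Cox5b, FDR 0.0328 and 0.021) and -0.15 and -0.21 (Cox6a1, FDR 0.0469 and 0.00964), all of which turned under total-count scaling, to 0.15 and 0.20 and to 0.20 and 0.21. In aIL17A both calls were also lost without Vehicle replicate 3 (-0.15 and -0.11), aIL17A replicate 2 (-0.16 and -0.14) or aIL17A replicate 3 (-0.19 and -0.13), and that of Cox6a1 without Vehicle replicate 1 (-0.17). In Combo the call of Cox5b was lost without Vehicle replicate 3 (-0.17), Combo replicate 2 (-0.19) or Combo replicate 3 (-0.22).

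Relative to WT ATMs, Combo ATMs had 37 subunit genes higher and 4 lower (17.8% and 23.2% of all genes), with a median of 0.20 against -0.12 over all genes, and Cox6a2 alone passed the fold limit (21.6%). Cox5a rose from 75.2, 69.6 and 68.5 to 117, 122 and 113 CPM (0.72 ± 0.07, FDR 5e-07), Sdhb from 110 to 126 to 180 to 188 CPM (0.61 ± 0.07, FDR 2.13e-06) and Atp5l from 20.5 to 23.4 to 32.0 to 35.8 CPM (0.66 ± 0.13, FDR 0.000555). The 4 lower genes were Ndufa5 (-0.39 ± 0.09, FDR 0.00351), Ndufa6 (-0.34 ± 0.09, FDR 0.00605), Cox6c (-0.26 ± 0.09, FDR 0.0274) and Uqcr11 (-0.26 ± 0.08, FDR 0.0206). The call of Cox6c was lost without WT replicate 1 (-0.13), Combo replicate 1 (-0.24) or Combo replicate 3 (-0.23), and that of Uqcr11 without Combo replicate 2 (-0.22), WT replicate 1 (-0.22) or WT replicate 3 (-0.24).

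Combo against GLP1 gave the most one-sided count of the comparisons made, 59 subunit genes higher and 0 lower, where 15.2% of all genes were higher and 24.6% lower. At an unadjusted edgeR p under 0.05 the counts were 62 and 0, and DESeq2 called 63 and 0. The median was 0.35 against -0.09 over all genes, and total-count scaling gave 71 and 0. Each other scaling moved the median of all genes up here, by 0.02 to 0.19. The scalings therefore could not have turned this direction and are no check of it. By complex, 28 of 35, 4 of 4, 5 of 8, 8 of 15 and 14 of 17 genes were higher. Ndufa3 led (66.1 to 73.8 against 31.8 to 40.6 CPM, 1.01 ± 0.12, FDR 6.07e-06), followed by Atp5k (22.9 to 24.2 against 12.4 to 14.7 CPM, 0.85 ± 0.13, FDR 7.56e-05) and Ndufb3 (39.7 to 41.5 against 23.1 to 23.7 CPM, 0.80 ± 0.09, FDR 2.71e-06). Neutrophil markers also differed between these groups (12974 to 13253 CPM in Combo, 266 to 281 in GLP1), as did erythroid (5674 to 5802 and 1549 to 1658), fibroblast and mesothelium (12026 to 12261 and 21657 to 21994) and pancreatic acinar (1133 to 1165 and 9.63 to 16.1) markers, and their part was not tested.

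Combo and aIL17A ATMs differed for few subunit genes, with 2 higher, 13 lower and 64 that did not pass (10.7% and 17.9% of all genes were higher and lower; median -0.11 against -0.03). Total-count scaling gave 6 higher and 5 lower, and upper-quartile scaling 0 and 19. The 2 higher genes were the complex V genes Atp5f1 (0.16 ± 0.05, FDR 0.0284) and Atp5b (0.11 ± 0.03, FDR 0.00402). Of these, Atp5f1 did not pass without any 1 Combo library (0.15 to 0.17) or without aIL17A replicate 1 (0.11). Among the lower genes were Cox6b2 (-1.14 ± 0.24, FDR 0.0018) and Ndufc1 (-0.45 ± 0.14, FDR 0.0189), the latter of which did not pass without Combo replicate 3 (-0.42), aIL17A replicate 1 (-0.39) or aIL17A replicate 2 (-0.40).

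Several subunits come as a common form and a form restricted to certain tissues. In ATMs the common forms far exceeded the restricted forms: Cox6a1 stood at 226 to 256 CPM in Vehicle and the muscle form Cox6a2 at 2.17 to 2.98. Cox6a2 was nearly absent from WT ATMs (0.215, 0.412 and 0.296 CPM), rose in Vehicle (3.05 ± 0.59, FDR 0.000368) and remained above WT in Combo (1.63 to 1.96 CPM, 2.49 ± 0.57, FDR 0.0025). In BM it had its highest level in WT and its lowest in Combo. Its exons overlap Itgad on the opposite strand over 10.3% of their bases, and reads there cannot be told apart.

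The testis form Cox6b2 stood at 7.25, 7.89 and 7.62 CPM in WT ATMs, 3.99, 3.05 and 4.19 in Vehicle, 4.38, 6.57 and 6.86 in GLP1, 12.2, 11.9 and 12.0 in aIL17A and 5.29, 5.42 and 5.66 in Combo. It fell from WT to Vehicle (-1.02 ± 0.24, FDR 0.00208) and rose in aIL17A (1.68 ± 0.24, FDR 2.5e-05). The testis forms Cox8c and Cox7b2, listed for ATMs only, had 0 counts in all 6 Vehicle and Combo libraries, which allows up to 3 counts in each. Cox8c had 106, 112 and 109 counts in WT, 300, 222 and 289 in GLP1 and 857, 754 and 811 in aIL17A, and Cox7b2 had 31, 35 and 35, 60, 62 and 92, and 242, 266 and 290. The spermatid markers given above were present in the same 3 groups and lowest in the same 2, and their part in the Cox6b2, Cox8c and Cox7b2 levels was not tested.

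**Figure D4:**
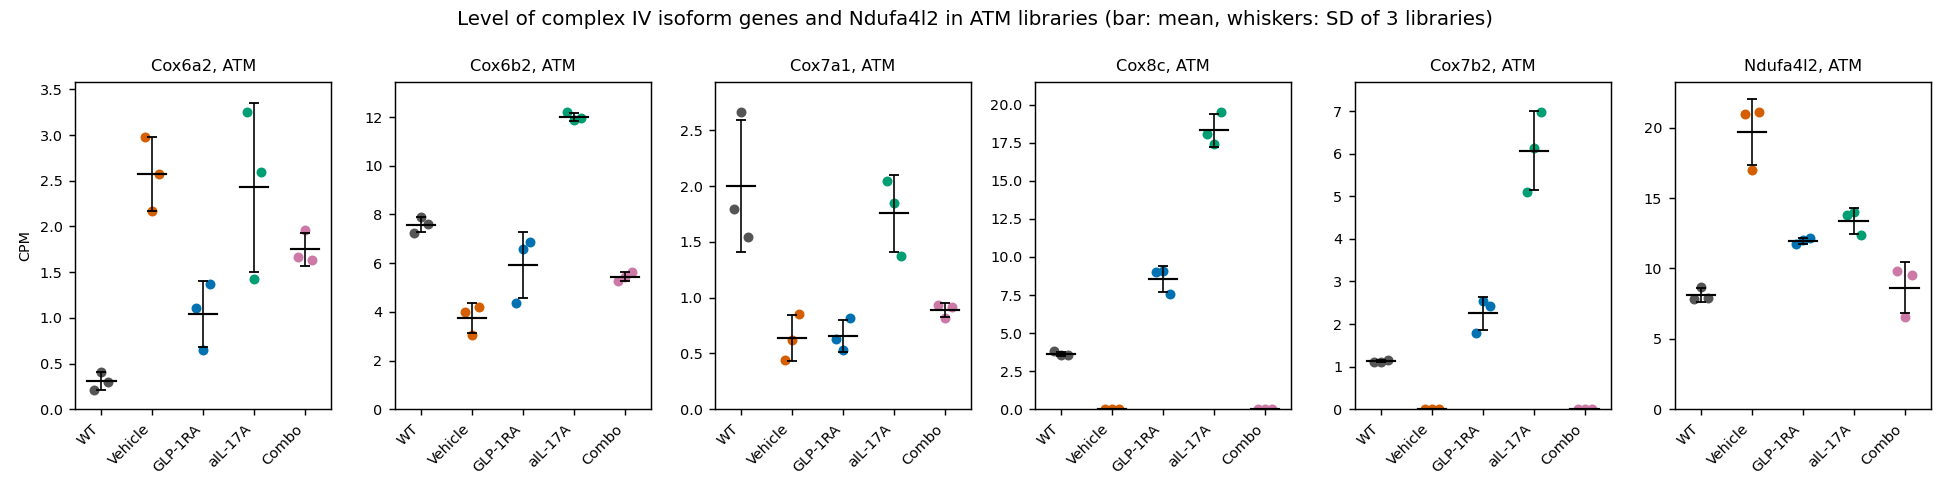
CPM (y axis, from 0) of tissue-restricted complex IV forms and of Ndufa4l2 in ATM libraries; points are libraries, bars the mean and whiskers the SD of 3. Cox8c and Cox7b2 are at 0 in every Vehicle and Combo library and highest in aIL17A, whereas Cox6a2 is lowest in WT (0.215 to 0.412 CPM) and Ndufa4l2 highest in Vehicle (16.98 to 21.1 CPM).

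Cox7a1, the muscle form of Cox7a, was low throughout, at 1.54 to 2.66 CPM in WT ATMs and 0.443 to 0.857 in Vehicle (-1.64 ± 0.59, FDR 0.0262), a call lost without Vehicle replicate 1 (-1.44), Vehicle replicate 2 (-1.62) or WT replicate 2 (-1.38). Its rise in aIL17A (1.45 ± 0.58, FDR 0.0438) was lost without any of 5 of the 6 libraries compared (lowest 1.24), all but Vehicle replicate 3. Ndufa4l2, the hypoxia-inducible relative of Ndufa4, rose from 7.82 to 8.69 CPM in WT to 16.98 to 21.1 CPM in Vehicle (1.28 ± 0.19, FDR 2.72e-05) and was lower than Vehicle in GLP1 (-0.72 ± 0.18, FDR 0.00385), aIL17A (-0.56 ± 0.18, FDR 0.0163) and Combo (-1.19 ± 0.19, FDR 6.46e-05). Cox4i2 passed in no ATM comparison, and in BM its fall in GLP1 (-0.82 ± 0.30, FDR 0.0133) was lost without GLP1 replicate 2 (-0.63) or Vehicle replicate 1 (-0.74).

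In BM the isoform with the largest rise under treatment was Cox6b2, from 10.9, 11.3 and 12.4 CPM in Vehicle to 23.4, 26.1 and 26.0 CPM in GLP1 (1.12 ± 0.07, FDR 5.07e-17), with smaller rises in aIL17A (0.50 ± 0.08) and Combo (0.38 ± 0.08). Of the 3 genes for the c-ring of complex V, which encode the same mature protein, Atp5g1 and Atp5g3 were lower in aIL17A than in Vehicle BM (-0.41 and -0.35, FDR 1.49e-09 and 1.66e-14) and higher in aIL17A than in Vehicle ATMs (0.32 and 0.55, FDR 0.0012 and 3.29e-05). Atp5g3 was the most abundant of the 3 in BM, at 115 CPM per kilobase in Vehicle against 22.3 for Atp5g1 and 49.9 for Atp5g2.

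The difference between the tissues was tested in the 13076 shared genes for Vehicle against WT. It passed for 48 of 79 subunit genes, 31 with a higher and 17 with a lower log2 fold change in ATMs than in BM, and for 56% of all genes. Sdha fell more in ATMs than in BM by a log2 value of -0.94 (FDR 1.34e-12) and Ndufs1 by -1.07 (FDR 4.56e-11). Uqcrq rose more in ATMs, by 1.04 (FDR 2.76e-10), and Ndufb7 by 0.66 (FDR 4.54e-06). Cox7a2l fell in both tissues, by 0.23 less in ATMs (FDR 0.00591), a difference that limma-voom did not call (FDR 0.124). Tissue is joined to sorting and cell type here, and these cannot be told apart. The WT groups of the tissues may also differ in donor or host, as stated at the start. The tissue difference was not run under total-count scaling. That scaling moved the median of all genes between Vehicle and WT by -0.44 in ATMs and -0.12 in BM.

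Other genes of the organelle were followed through lists. Of the 77 mitochondrial ribosomal protein genes, which translate the subunits encoded by mitochondrial DNA, 5 were higher and 65 lower in aIL17A than in Vehicle BM (median -0.41; 36.4% and 36.6% of all genes). In ATMs, 3 were higher and 38 lower in GLP1 than in Vehicle (median -0.38; 31.8% and 22% of all genes), 36 higher and 2 lower in Combo than in GLP1 (median 0.37, with 15.2% and 24.6% of all genes), and 17 higher and 21 lower in aIL17A than in Vehicle (33.1% and 25% of all genes).

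Of the 13 tricarboxylic acid cycle genes, 3 were higher and 8 lower in Vehicle than in WT ATMs (median -0.40), where 24.3% and 32.6% of all genes were. Against Vehicle, 10 were higher and 2 lower in aIL17A (median 0.59, with 33.1% and 25% of all genes) and 10 higher and 1 lower in Combo (median 0.54, with 25% and 23.7%). The list does not include the 4 complex II genes. Citrate synthase, Cs, which opens the cycle, gave -0.40 ± 0.07 between Vehicle and WT ATMs (FDR 0.00017) and 0.57 ± 0.07 and 0.74 ± 0.07 in aIL17A and Combo (FDR 4.77e-06 and 3.01e-07). In BM, 9 of the 13 were higher and 1 lower in Combo than in Vehicle (median 0.12, with 37.9% and 35.8% of all genes).

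Cytochrome c (Cycs), the carrier between complexes III and IV, was higher in Vehicle than in WT in both tissues (0.78 ± 0.03 in BM, FDR 7.53e-23; 1.39 ± 0.07 in ATMs, FDR 1.09e-10). It was lower than Vehicle in GLP1 (-1.38 and -1.76), aIL17A (-1.25 and -1.49) and Combo (-1.02 and -1.39, BM first, FDR at most 1.37e-10). Combo lay below WT in BM (-0.24 ± 0.04, FDR 1.27e-07) and did not pass against WT in ATMs (FDR 0.983). In its list of 16 carrier and coenzyme Q genes in the tables, 3 were higher and 9 lower in Vehicle than in WT ATMs (median -0.67, with 24.3% and 32.6% of all genes), and 8 higher and 2 lower in aIL17A than in Vehicle (median 0.55, with 33.1% and 25%).

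Of 43 assembly factor genes in the ATM table, 2 were higher and 18 lower in GLP1 than in Vehicle (median -0.41, with 31.8% and 22% of all genes), and 12 were higher in Combo than in GLP1 (median 0.33, with 15.2%). Of 44 in the BM table, 4 were higher and 29 lower in Combo than in WT (median -0.37, with 36.1% and 37.2%). Of 14 regulators of mitochondrial biogenesis, 4 were higher and 5 lower in Vehicle than in WT ATMs (24.3% and 32.6% of all genes). Their median was -0.28, against -0.21 over all genes. Ppargc1a, the coactivator PGC-1 alpha, had 26, 117 and 88 counts in WT ATMs and 0, 3 and 5 in Vehicle (-4.38 ± 1.12, FDR 0.00357), with 129, 117 and 301 in GLP1, 132, 104 and 179 in aIL17A and 31, 2 and 81 in Combo, of which Combo overlapped Vehicle. Its log2 fold changes against Vehicle were 5.52, 4.71 and 3.13 (FDR 0.000833, 0.00219 and 0.0274). Esrra, the nuclear receptor ERR alpha, was higher in Vehicle than in WT ATMs (1.18 ± 0.20, FDR 0.00014) and lower in GLP1, aIL17A and Combo than in Vehicle (-1.17, -0.74 and -0.81, FDR at most 0.00522). Tfam, which packages mitochondrial DNA, was lower in Vehicle than in WT BM (-0.41 ± 0.05, FDR 1.05e-10) and did not pass in ATMs (-0.19, FDR 0.394). Other regulators were higher in Vehicle than in WT BM: Ppargc1b (1.44), Myc (0.58), Pprc1 (0.57) and Esrra (0.25, FDR at most 6.55e-06). Nrf1 and Gabpa did not pass there (FDR 0.56 and 0.32). Ucp2, an inner membrane carrier of leukocytes, was higher in Vehicle than in WT ATMs (1.43 ± 0.03, FDR 1.61e-15), and Atpif1, the inhibitor of complex V, lower (-0.56 ± 0.06, FDR 1.93e-06) and higher again in aIL17A (1.01 ± 0.06, FDR 1.86e-09).

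Exon length moved with several of these differences. The members were split into 3 sets at 1217 and 2147 bases, with 27 short, 26 middle and 26 long genes. Between aIL17A and Vehicle BM the medians were -0.41, -0.31 and -0.18 from short to long, and those of all genes of the same lengths -0.34, -0.14 and 0.04. Between Combo and WT BM they were -0.27, -0.33 and -0.10, against -0.38, -0.26 and 0.03 for all genes. In ATMs, GLP1 against Vehicle gave -0.51, -0.15 and -0.08, where all genes gave 0.23, 0.00 and 0.22, and Combo against Vehicle -0.07, 0.21 and 0.37, where all genes gave 0.00, 0.00 and 0.05.

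After a trend over length fitted on all genes was taken off, which was chosen after seeing the data, the median of the 79 genes in BM was -0.02 for Vehicle against WT, 0.01 for GLP1, -0.19 for aIL17A and -0.05 for Combo against Vehicle, and 0.02, -0.03 and 0.15 for Combo against WT, GLP1 and aIL17A. In ATMs the same 7 medians were 0.04, -0.17, 0.10, 0.23, 0.25, 0.31 and -0.06. In BM, aIL17A against Vehicle and Combo against aIL17A thus stayed more than 0.1 from genes of like length, and the other 5 medians lay within 0.05 of them.

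**Figure D5:**
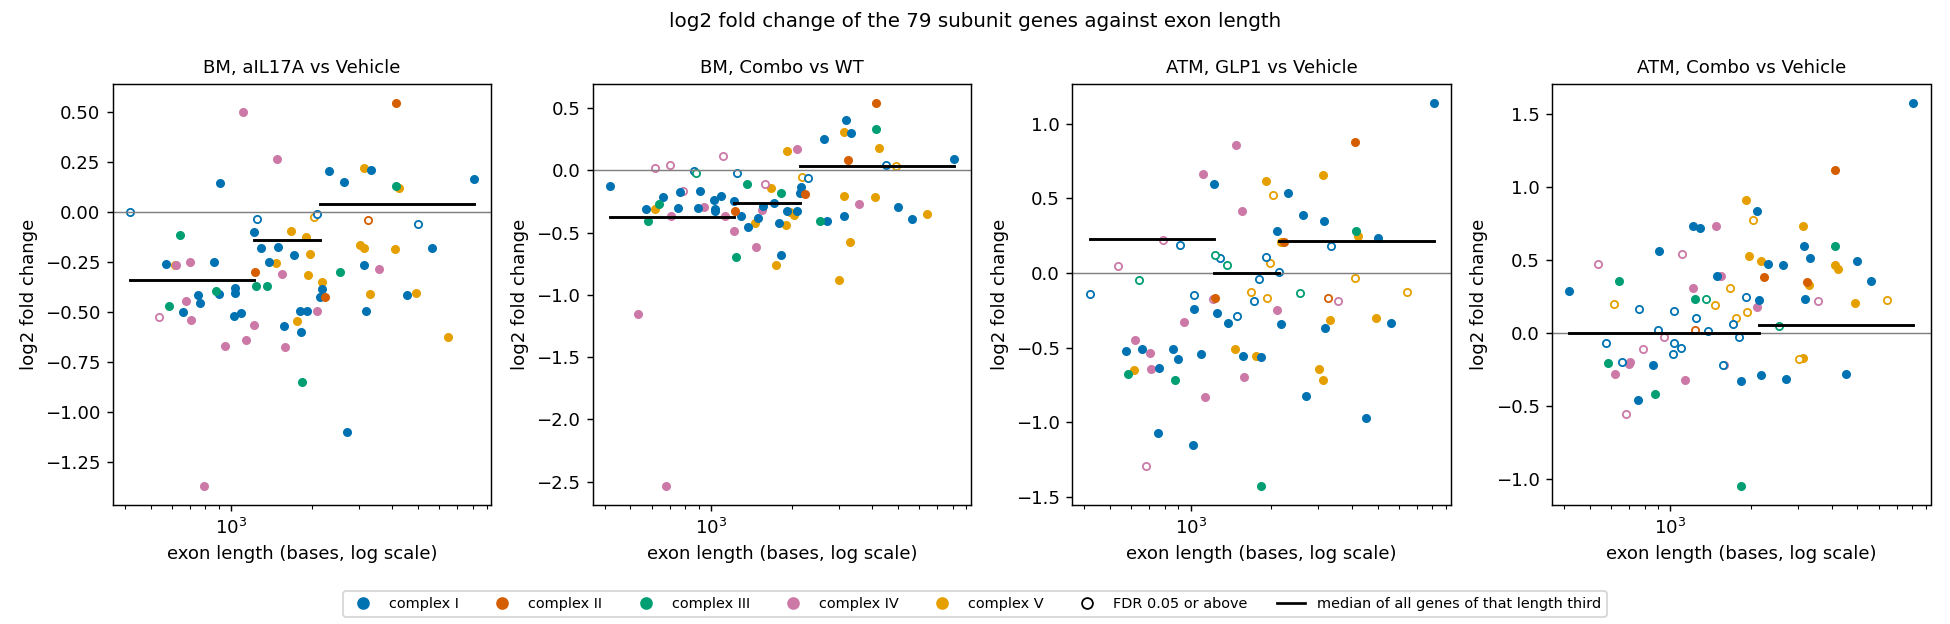
Log2 fold change (y axis) of the 79 subunit genes against exon length in bases (x axis, log scale), for 4 comparisons after TMM scaling; points are genes coloured by complex and black lines the median of all genes in that set of lengths. In aIL17A against Vehicle BM the subunit medians run from -0.41 (short) to -0.18 (long), below those of all genes, and in GLP1 against Vehicle ATMs from -0.51 to -0.08, a comparison whose count of higher and lower genes evens out under total-count scaling.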

How the data were processed

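The authors aligned paired-end reads to mm10 with STAR 2.7.2a and counted them per gene of GENCODE M22 with featureCounts 2.0.1, without strand and above a mapping quality of 10; the deposited values are raw counts. Each read overlapping several genes counts for each, and reads that fit a processed pseudogene equally well fall under the quality limit. Here counts were fitted per tissue over 15 libraries with edgeR 4.0.16 (TMM, quasi-likelihood, R 4.3.3), with Benjamini-Hochberg FDR over all genes of the table and 0.05 as threshold; the fit was tested on simulated data. The tissue difference was fitted over both tables, and limma 3.58.1 (voom) was run beside it. Replicates are numbered in the labels and are read as separate mice, which was not tested. If they came from pooled or split material, the SEs and FDRs would not measure the spread between mice. Members and lists were chosen with earlier results of these data known. Genes were named as core subunits, tissue isoforms, the 3 largest rises and falls per comparison among those past FDR and with a mean of at least 10 counts, and those past an absolute log2 fold change of 1. Ndufs4, Ndufv3, Uqcrh, Uqcrq, Ndufb10, Atp5k, Atp5e and Atp5l outside the comparisons where that rule names them, other such members and the list genes were chosen after their values were seen. Gene lengths and overlaps come from GENCODE M21 on GRCm38 and promoters from RefSeq. Alternatives were other scalings, DESeq2 1.42.0, a filter of 10 counts, a replicate block and leaving out each library. Replicate numbers are shared across groups but did not pair the libraries (highest correlation of deviations 0.052 in BM and 0.034 in ATMs).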

Additional observations from a re-analysis of the deposited data

Results flagged for a closer look

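The log2 fold change between Vehicle and WT differed between ATMs and BM, in a test of that difference, for 48 of the 79 genes. Given here are the 9 of these that the naming rule picked for the size of their change between Vehicle and WT in either tissue. The values in ATMs minus BM were -1.35 for Atp5s, -1.53 for Cox4i2, 3.87 for Cox6a2, -0.75 for Cox6b2, 0.23 for Cox7a2l, 0.66 for Ndufb7, -1.07 for Ndufs1, -0.94 for Sdha and 1.04 for Uqcrq. With edgeR the FDR ran from 1.34e-12 (Sdha) to 0.0203 (Cox4i2), and limma-voom did not call Cox4i2 (FDR 0.0666), Cox6b2 (0.0944) or Cox7a2l (0.124). Over all 79 genes limma-voom called 34, against 48 with edgeR. Cox6a2 and Cox4i2 differed in sign between the tissues, and Cox4i2 did not pass in ATMs alone (FDR 0.557). Neutrophil, interferon, adipocyte and fibroblast and mesothelium markers, among others, differed between Vehicle and WT ATMs, and their part in these differences was not tested. Which donors and recipients the WT ATM group had was not resolved, so Vehicle against WT may not be the same contrast in ATMs and BM.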

How the results depend on the processing

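Counts of genes past the threshold, higher and lower added, stayed within 1.5 times the values reported, except for Combo against aIL17A in BM. The alternatives were the other scalings, DESeq2, the 10-count filter, only the groups compared and the replicate block. That comparison had 37 genes under total-count and 39 under upper-quartile scaling. Such counts do not show direction. Under total-count scaling GLP1 against Vehicle in BM went from 20 higher and 35 lower to 54 and 9. Combo against aIL17A in BM went from 57 and 3 to 11 and 26. In ATMs, Vehicle against WT went from 26 and 25 to 5 and 53. GLP1 against Vehicle went there from 17 and 36 to 26 and 24, and Combo against aIL17A from 2 and 13 to 6 and 5. The other comparisons between groups kept their larger side. The added fold limit left, in the order Vehicle against WT, GLP1, aIL17A and Combo against Vehicle, Combo against WT, GLP1 and aIL17A, 2, 2, 2, 2, 2, 0 and 1 genes in BM and 7, 4, 5, 3, 1, 1 and 1 in ATMs. Leaving out 1 library gave 54 to 65, 51 to 55, 67 to 70, 60 to 62, 64 to 67, 53 to 56 and 54 to 57 genes in BM, in the same order, 47 to 51, 50 to 53, 45 to 50, 39 to 46, 34 to 39, 53 to 57 and 10 to 16 in ATMs, and 42 to 46 for the tissue difference. With the replicate block the counts were 62, 57, 72, 64, 68, 56 and 61 in BM and 50, 52, 49, 47, 41, 57 and 15 in ATMs. Total-count scaling reversed Uqcrb (-0.013), Cox7a2 (-0.028) and Cox8a (-0.011) between Vehicle and WT in BM; Sdhb (-0.21), Sdhd (-0.014), Uqcrc2 (-0.20), Cox6b1 (-0.051), Cox7a2 (-0.17) and Cox8a (-0.14) between Vehicle and WT in ATMs; Cox5b (0.20), Cox6a1 (0.21), Cox6b1 (0.22) and Cox8a (0.13) between Combo and Vehicle in ATMs; and Cox5b (0.15) and Cox6a1 (0.20) between aIL17A and Vehicle in ATMs. The cause was not tested. Under total-count scaling the median of all genes also moved by 0.23 (GLP1), 0.17 (aIL17A), -0.26 (Combo against GLP1) and -0.19 (Combo against aIL17A) in BM, and by 0.22 (GLP1), 0.35 (aIL17A) and 0.41 (Combo against Vehicle) in ATMs. Of 3689 values for named genes under the alternatives, 15 reversed and 124 lost their call, 74 of these on leaving out 1 library. With 3 libraries a group, isoforms at a few CPM are the least certain.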
